A study of Drosophila melanogaster with 3 samples.

Results

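The 10 genes described here are known as ecdysone-inducible genes outside the early regulators, together with the ecdysone importer Oatp74D. They were chosen by name and make up 10 of the 17278 genes of the deposited table. Of these, 9 were found under their symbol in the Ensembl BDGP6.54 annotation, and Eip71CD was found as MsrA through a RefSeq synonym. The study measured poly(A) RNA by sequencing in salivary glands of Drosophila melanogaster larvae at the L3 stage, with 50 glands per sample and flies kept at 25 °C. It has 1 group of 3 control libraries, replicates 1, 2 and 3. The sample titles name an Oregon stock, whereas the genotype field reads yw, and no transgene or treatment is given. With a single group the data give levels and their spread between libraries, and nothing in the labels says that the libraries came from separate cultures.

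Ecdysone is the steroid hormone that times moulting and metamorphosis in insects. It enters cells through a membrane transporter, is bound by the receptor pair EcR and usp, and switches on early genes, many of them transcription factors, which in turn control later genes. In the salivary gland, whose polytene chromosomes show these genes as puffs, a pulse of the hormone at the end of larval life ends the synthesis of glue proteins, and later pulses lead to the removal of the gland. The genes described here have known roles in hormone uptake and transport, transcription, calcium binding, secretion and sulphur metabolism.

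The values are FPKM, which are scaled to gene length and by a factor for each library. The basis of this factor is not given in the sources used. Outside 18 genes with rRNA in their symbol, here called rRNA-named genes, the fragments recovered numbered 678714, 874004 and 1185541 in replicates 1, 2 and 3. With these genes included they numbered 1509430, 1490257 and 1571524. The factors were in proportion to neither set of fragments. Over 4697 genes of at least 20 fragments, the median ratio as deposited was 0.982 for replicate 2 over replicate 1. It was 0.939 for replicate 2 over replicate 3 and 0.991 for replicate 1 over replicate 3. All 10 salivary gland marker genes, glue genes and sage, fkh and CrebA among them, had at least 1 FPKM in every library, from 64.1 FPKM on average for fkh to 311039 FPKM for Sgs7. All 7 fat body marker genes also had at least 1 FPKM in every library. Their summed level was 2892, 4117 and 4306 FPKM in replicates 1, 2 and 3, against 1021480, 764004 and 867269 FPKM for the gland markers. The share of fragments on rRNA-named genes was 55.0%, 41.4% and 24.6%. In bulk samples, fewer cells of a type and less RNA per cell cannot be told apart.

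All 10 genes had at least 1 FPKM in each of the 3 libraries, against 33.1% of all genes of the table and 40.1% of protein-coding genes. Their mean levels ran from 2.50 FPKM for ImpL2 to 73.4 FPKM for Cth. The rank by mean level was 677 of 17278 for Cth and 5746 for ImpL2. Together the 10 genes held 501, 933 and 461 fragments in replicates 1, 2 and 3. Of the fragments outside rRNA-named genes this was 0.0738% in replicate 1, with a 95% Wilson interval from 0.0676% to 0.0806%. For replicate 2 the share was 0.107% (0.1001% to 0.114%), and for replicate 3 it was 0.0389% (0.0355% to 0.0426%). Sox14, E23 and Eip63F-1, grouped after their values were seen, held 0.0343% (0.0302% to 0.0390%), 0.0699% (0.0646% to 0.0757%) and 0.00548% (0.00430% to 0.00699%) of these fragments in replicates 1, 2 and 3. The other 7 genes held 0.0395% (0.0350% to 0.0445%), 0.0368% (0.0330% to 0.0411%) and 0.0334% (0.0303% to 0.0369%). Intervals here and below cover counting error only.

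**Figure D1:**
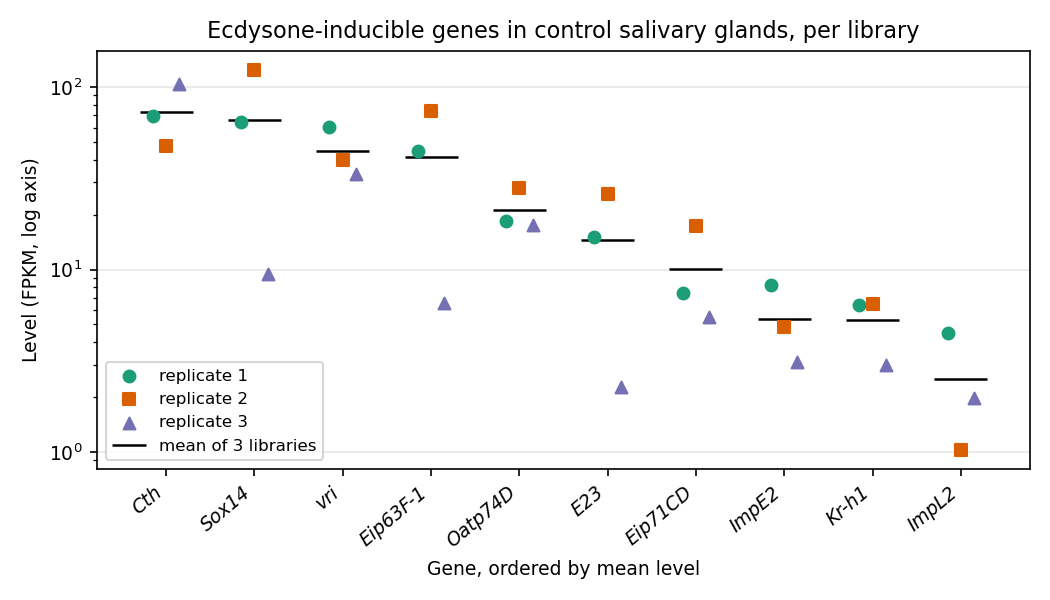
Level of each of the 10 genes in FPKM (log axis) in replicates 1, 2 and 3 (symbols), with the mean of the 3 libraries as a bar, ordered by mean level from Cth at 73.4 FPKM to ImpL2 at 2.50 FPKM. Sox14, Eip63F-1 and E23 have replicate 3 far below the other libraries, whereas Cth has replicate 3 highest.

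Oatp74D, the transporter that imports ecdysone, is the member of the organic anion transporter family that brings the hormone to its receptor. It had 18.3, 27.9 and 17.6 FPKM in replicates 1, 2 and 3, averaging 21.3 ± 5.72 (SD, n = 3). Replicates 1 and 3 were nearly equal and replicate 2 stood above them. The SD as deposited was 26.9% of the mean, the smallest of the 10 genes, a ranking that depends on the scaling. With the sum of each library made equal (TPM), replicate 2 over replicate 1 was 2.20 for Oatp74D and 0.947 for vri. The gene (FBgn0036732) spans 24576 bases of chromosome arm 3L, 17487118 to 17511693, with 4146 exon bases, and rested on 191 fragments. Replicate 2 exceeded replicate 3 by a ratio of 1.58 (95% exact interval 1.14 to 2.21) and replicate 1 by 1.52 (1.02 to 2.29). Replicate 1 over replicate 3 was 1.04 (0.682 to 1.57) as deposited, a difference not detectable at this depth and on this scale. It was 0.649 as TPM and 0.971 as TPM without rRNA-named genes, so the near equality of these libraries depended on the scaling.

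Sox14 encodes an HMG-box transcription factor, known for its part in the pruning of sensory neuron dendrites at metamorphosis. It had 64.3 FPKM in replicate 1, 124 in replicate 2 and 9.46 in replicate 3, averaging 66.1 ± 57.5 (SD, n = 3). It was the highest of the 10 genes in replicate 2 and only the fourth in replicate 3. In counts these values were 115, 324 and 32 fragments. The ratio of replicate 2 to replicate 3 was 13.2 (95% exact interval 9.14 to 19.6), that of replicate 1 to replicate 3 was 6.80 (4.56 to 10.4), and that of replicate 2 to replicate 1 was 1.94 (1.56 to 2.42). The gene (FBgn0005612) lies on 2R, 23978801 to 23985177, with 3579 exon bases, and shares 3 of them with Phm on the opposite strand.

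vri encodes a bZIP transcription factor that represses Clk in the circadian clock and is also known to respond to ecdysone. Its levels were 60.8, 39.7 and 33.5 FPKM in replicates 1, 2 and 3, averaging 44.7 ± 14.3 (SD, n = 3) from 431 fragments. Unlike Sox14 it was highest in replicate 1, and its 3 libraries stayed within a ratio of 1.82. Replicate 2 over replicate 3 was 1.19 (95% exact interval 0.935 to 1.51), which was not detectable as a difference at this depth. The gene (FBgn0016076) lies on 2L, 5288944 to 5311223, with 4739 exon bases.

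Kr-h1 encodes a zinc finger transcription factor known as an early target of juvenile hormone and an opponent of metamorphosis. It had 6.41, 6.48 and 2.99 FPKM in replicates 1, 2 and 3, averaging 5.29 ± 1.99 (SD, n = 3) from 57 fragments. Replicates 1 and 2 were alike and replicate 3 was lower, by a ratio of 2.17 to replicate 2 (95% exact interval 1.098 to 4.42). Its level is uncertain. The gene (FBgn0266450, 2L, 6082603 to 6096498) has 5306 exon bases, and 78.6% of them are also exons of CG45075 on the same strand, which was listed at 0 in every library. How fragments in shared exons were assigned is not given in the sources used here.

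E23 encodes an ABC transporter of the family of the eye pigment transporter white, and is known as an early ecdysone-induced gene that dampens the response to the hormone. It had 15.2, 25.9 and 2.26 FPKM in replicates 1, 2 and 3, averaging 14.4 ± 11.8 (SD, n = 3). Replicate 3 was again the lowest, with 11 fragments against 39 in replicate 1 and 97 in replicate 2. The ratio of replicate 2 to replicate 3 was 11.5 (95% exact interval 6.13 to 23.7), and that of replicate 1 to replicate 3 was 6.71 (3.37 to 14.5). The gene (FBgn0020445) lies on 2L, 3334875 to 3354829, with 5149 exon bases.

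Eip63F-1 encodes a calcium-binding protein with EF hands, related to calmodulin. It had 44.6, 73.7 and 6.56 FPKM in replicates 1, 2 and 3, averaging 41.6 ± 33.7 (SD, n = 3) from 79, 190 and 22 fragments. The order of the libraries was that of Sox14 and E23. Replicate 2 over replicate 3 gave 11.2 (95% exact interval 7.20 to 18.3), and replicate 1 over replicate 3 gave 6.79 (4.19 to 11.4). The gene (FBgn0004910) lies on 3L, 3909973 to 3935617, with 3545 exon bases, of which 3.72% are shared with an antisense RNA that had 1.57, 1.08 and 0 FPKM.

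ImpE2 and ImpL2 were first known as ecdysone-inducible genes of imaginal discs. ImpE2 encodes an extracellular protein of the disc epithelium, and ImpL2 a secreted immunoglobulin-domain protein that binds insulin-like peptides and curbs insulin signalling. ImpE2 had 8.20, 4.83 and 3.10 FPKM in replicates 1, 2 and 3, averaging 5.37 ± 2.59 (SD, n = 3). ImpL2 had 4.50, 1.03 and 1.98 FPKM, averaging 2.50 ± 1.79 (SD, n = 3). Both were highest in replicate 1 and rested on few fragments. ImpE2 had 7, 6 and 5 fragments and ImpL2 had 6, 2 and 5, and every interval of their ratios between libraries included 1. ImpE2 (FBgn0001254, 3L, 3510974 to 3512681) is a single exon of 1708 bases. ImpL2 (FBgn0001257, 3L, 4224006 to 4236147) has 2667 exon bases, 61.9% of which the annotation also gives to CG46460 on the same strand, a gene without a row in the table.

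Cth and Eip71CD encode enzymes of sulphur amino acids. Cth is cystathionine gamma-lyase, which makes cysteine from cystathionine, and Eip71CD is the methionine sulphoxide reductase annotated as MsrA, which repairs oxidised methionine. Cth had 69.0, 47.4 and 104 FPKM in replicates 1, 2 and 3, averaging 73.4 ± 28.4 (SD, n = 3) from 51, 51 and 145 fragments. It was the only one of the 10 genes with its highest level in replicate 3, where it exceeded replicate 2 by a ratio of 2.19 (95% exact interval 1.58 to 3.07) and replicate 1 by 1.5 (1.09 to 2.11). Eip71CD had 7.39, 17.3 and 5.47 FPKM, averaging 10.04 ± 6.33 (SD, n = 3) from only 5, 17 and 7 fragments. It was highest in replicate 2, at 3.16 times replicate 3 (1.24 to 9.00). Cth (FBgn0000566) lies on 2R, 18627918 to 18629395, as a single exon of 1478 bases, and Eip71CD (FBgn0000565) on 3L, 15511052 to 15513202, with 1354 exon bases.

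The order of the 10 genes by mean level was Cth, Sox14, vri, Eip63F-1, Oatp74D, E23, Eip71CD, ImpE2, Kr-h1 and ImpL2. Since FPKM are per length, neighbours in this order were compared within libraries as differences of log2(FPKM + 1). Oatp74D exceeded E23 by 0.96 ± 1.35 (SD, n = 3) and Kr-h1 exceeded ImpL2 by 0.91 ± 0.84, each in 3 of 3 libraries (two-sided exact sign-flip permutation p = 0.25, the smallest p that 3 libraries allow). The other 7 pairs had the first gene higher in 2 of 3 libraries. Sox14 minus vri, for example, was 0.08, 1.62 and -1.72 in replicates 1, 2 and 3. The adjusted p was 1.0 for all 9 pairs by this exact test with Benjamini-Hochberg adjustment, in a design that could not pass. Of the 9 mean differences, only Kr-h1 minus ImpL2 was larger than its SD. Sox14 held place 2, 1 and 4 in replicates 1, 2 and 3, Cth place 1, 3 and 1, and ImpL2 place 10 in each.

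The spread of 3 genes was wide for their level. The SD of log2(FPKM + 1) was 1.86 for Sox14, 1.74 for Eip63F-1 and 1.59 for E23. Of the genes within 2-fold of each one's mean level, 95.5%, 95.5% and 96.6% had a smaller SD. For Oatp74D this share was 40.6%, for vri 57.2%, for Kr-h1 56.5%, for ImpL2 60.2%, for ImpE2 62.6%, for Cth 73.1% and for Eip71CD 81.2%.

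Ratios between libraries were read against all 4730 genes with at least 20 fragments, a minimum that 8 of the 10 genes met and ImpE2 and ImpL2 did not. Called here means a ratio of FPKM past 2-fold between 2 single libraries, a description of these libraries with no test. Between replicates 2 and 3, 6 of the 8 genes passed 2-fold, against 25.8% of all genes. Replicate 2 was higher for 5 of them (Sox14, E23, Eip63F-1, Eip71CD and Kr-h1), against 13.7% of all genes. Replicate 3 was higher for 1, Cth, against 12.1%. Between replicates 1 and 3, 4 of the 8 passed, all with replicate 1 higher, against 11.2% of all genes in that direction and 22.0% in either. These were Sox14, E23, Eip63F-1 and Kr-h1. As TPM, 3 passed with replicate 1 higher and 1, Cth, with replicate 3 higher (ratio of replicate 1 to replicate 3 of 0.414), against 39.9% of all genes in either direction. Kr-h1, at ratios of 2.17 and 2.14, and Cth, at 2.19, lay just past 2-fold, and some other scalings ended these calls. As TPM, with the sum of each library made equal, Kr-h1 had 1.95 for replicate 2 over replicate 3 and 1.33 for replicate 1 over replicate 3. As TPM without rRNA-named genes, Kr-h1 had 1.998 for replicate 1 over replicate 3, and Cth had 0.511 for replicate 2 over replicate 3. Between replicates 2 and 1, Eip71CD alone passed, against 13.9% in either direction. Its ratio of 2.34 rested on 17 and 5 fragments, and the interval, 0.827 to 8.10, included 1. Sox14, at 1.94 (1.56 to 2.42), lay just under 2-fold with an interval above 1. Replicate 3 held the lowest value of 7 of the 8 genes, against 35.8% of all genes, and replicate 2 the highest value of 6, against 30.3%.

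Sox14, E23 and Eip63F-1 were the 3 genes past 4-fold between replicates 2 and 3, where 5.35% of all genes passed with replicate 2 higher, and between replicates 1 and 3, where 3.21% passed with replicate 1 higher. They also passed 10-fold between replicates 2 and 3, against 2.52% of all genes with replicate 2 higher. The ratios of replicate 1 to replicate 3 were 6.80, 6.79 and 6.71 for Sox14, Eip63F-1 and E23, in 3 successive places, 81 to 83, among the 4730 genes. Their counting intervals overlapped widely. As TPM these ratios were 4.23, 4.23 and 4.18, just past 4-fold. By the ratio of replicate 2 to replicate 3 the genes held places 102, 113 and 111. Replicate 3 was lower than both other libraries past 4-fold for 128 of the 4730 genes (2.71%), of which these were 3.

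**Figure D2:**
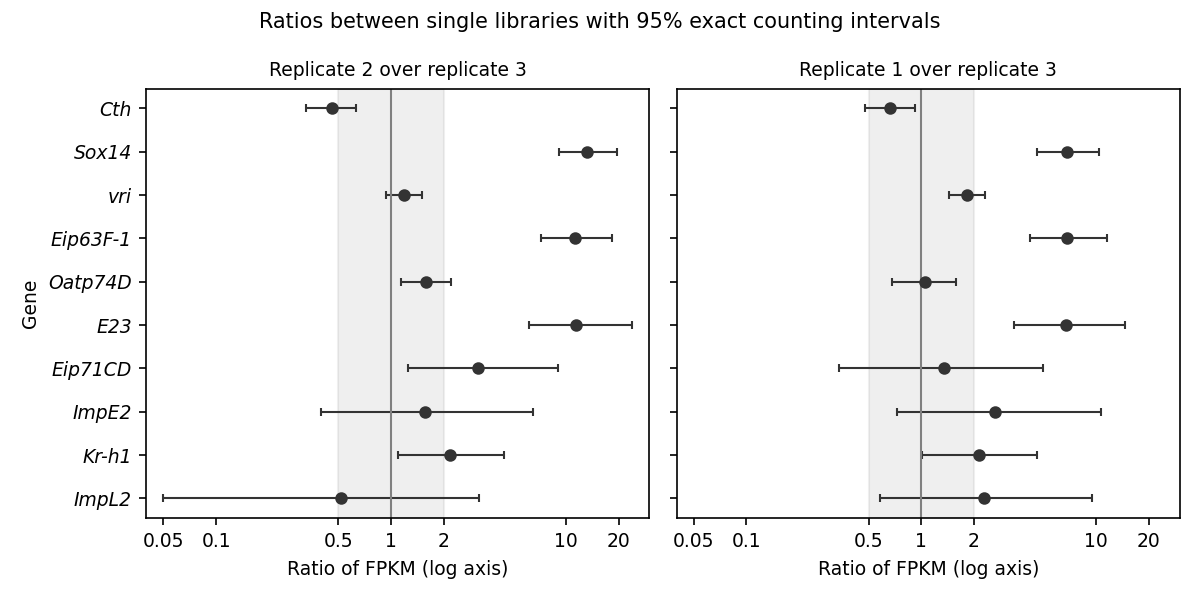
Ratios of FPKM (log axis) of replicate 2 to replicate 3 and of replicate 1 to replicate 3 for the 10 genes (points), with 95% exact intervals from recovered fragments; the grey band spans ratios from 0.5 to 2. Sox14, Eip63F-1 and E23 lie near 12 and 7 with intervals outside the band, and the intervals of ImpE2 and ImpL2 include 1.

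**Figure D3:**
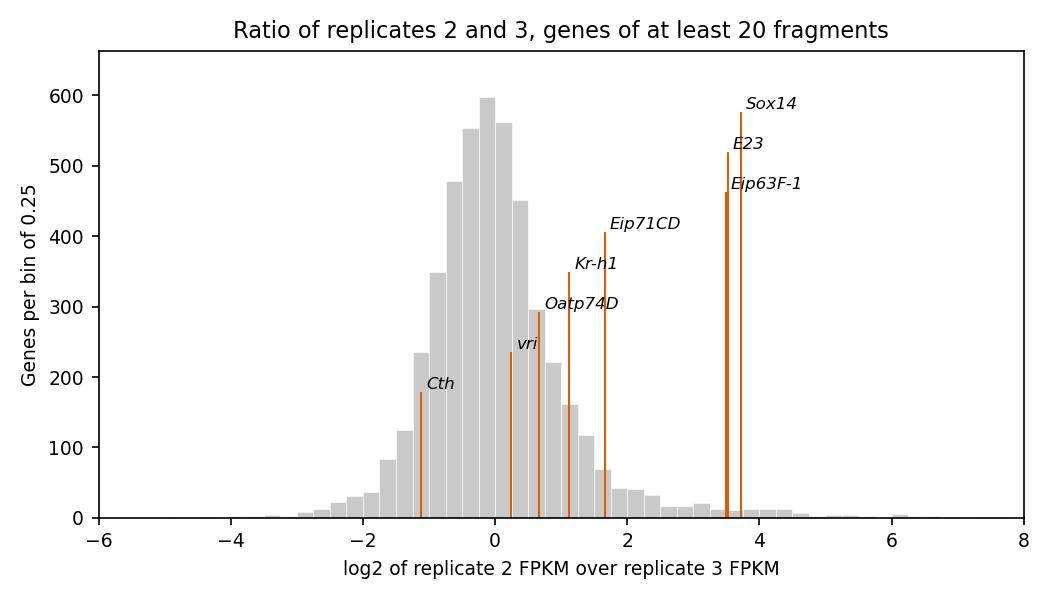
Histogram of the log2 ratio of replicate 2 to replicate 3 over 4697 genes with at least 20 fragments and a value above 0 in each library, with the 8 genes that met the minimum as labelled lines, whose heights have no meaning. The median gene lies at -0.09, Cth at -1.13, vri at 0.25 and Sox14, E23 and Eip63F-1 between 3.49 and 3.72; 4 genes above 8 are not drawn.

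Of the receptor and early regulators, 13 genes in all, 10 had at least 20 fragments, and 6 of these had replicate 2 over replicate 3 past 2-fold (13.7% of all genes) and none the reverse. The nuclear receptor gene Eip75B had 44.8, 62.2 and 8.26 FPKM in replicates 1, 2 and 3, a profile close to that of Eip63F-1. Eip78C, also a nuclear receptor gene, had 39.1, 119 and 0.180 FPKM, and Hr4 had 12.5, 20.9 and 0.0761 FPKM, each on 1 fragment in replicate 3. Replicate 3 was thus far lower for both than for any of the 10 genes. Eip74EF, an ETS-domain factor, had 92.8, 94.3 and 37.3 FPKM, and br, a zinc finger factor, had 94.98, 78.0 and 39.7 FPKM. These were the highest mean levels of the list. EcR, the receptor itself, had 52.6, 40.7 and 29.5 FPKM, an order of libraries shared with vri.

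Among 5 further genes named as ecdysone-inducible, Ldh (lactate dehydrogenase, once ImpL3) and Eip63E (a cyclin-dependent kinase) met the fragment minimum. Ldh had 34.0, 65.8 and 8.17 FPKM, with replicate 2 at 8.06 times replicate 3 (95% exact interval 4.64 to 14.97). Eip63E had 3.06, 28.1 and 2.26 FPKM, with replicate 2 at 12.4 times replicate 3 (7.16 to 23.4). Eip63E was low in replicate 1 as well, where Sox14, E23, Eip63F-1 and Ldh were not. ImpL1, ImpE1 and ImpE3 had 1.74, 0.489 and 0.741 FPKM on average from 4, 6 and 2 fragments.

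Of 10 genes of steroid transport and turnover, a list without Oatp74D, only Oatp30B, a further anion transporter gene, had at least 1 FPKM in every library. Its levels were 5.38, 18.2 and 6.44 FPKM in replicates 1, 2 and 3, below Oatp74D in each. Oatp26F, Oatp33Ea, Oatp33Eb, Oatp58Db and Oatp58Dc were listed at 0 in every library, where 3 fragments, the limit that a count of 0 allows, would have been 1.91 to 2.87 FPKM in replicate 1. shd, which makes the active hormone 20-hydroxyecdysone, had 0.663, 1.82 and 4.56 FPKM, and Cyp18a1, which inactivates it, rested on 1 fragment.

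E23 had the highest mean level of 14 matched genes of its ABC transporter family, of which 7 had at least 1 FPKM in every library. CG17646 followed with 3.94, 18.6 and 2.08 FPKM. All 4 genes of the family with at least 20 fragments, E23, CG17646, CG4822 and CG31689, had replicate 2 over replicate 3 past 2-fold, against 13.7% of all genes. The white gene itself, w, had 3.40, 5.26 and 0 FPKM from 4, 9 and 0 fragments. In the Sox family, SoxN, a factor of nervous system and epidermal development, had 22.4, 124 and 4.73 FPKM beside the 64.3, 124 and 9.46 FPKM of Sox14. Of the other 6 Sox genes, Sox21b had the highest mean at 7.43 ± 2.01 FPKM (SD, n = 3), and Sox100B was listed at 0.

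Cam, which encodes calmodulin, differed from its relative Eip63F-1 in where it was high. It had 46.1, 41.6 and 74.8 FPKM in replicates 1, 2 and 3, so that replicate 3 exceeded replicate 2 by a ratio of 1.80 (95% exact interval 1.5 to 2.16). Of the other genes of the calmodulin list, 4 were listed at 0, where 3 fragments would have been 4.90 to 8.88 FPKM in replicate 1. Some further genes of the list of sulphur amino acid enzymes were, like Cth, highest in replicate 3. Of 8 genes of this list with at least 20 fragments, 4 had replicate 3 over replicate 2 past 2-fold, against 12.1% of all genes. These were Cth itself, Sam-S, Gclm and Gnmt, and 1, Eip71CD, had the reverse. Gclm and Gnmt rested on 37 and 38 fragments in all. Ahcy, which breaks down S-adenosylhomocysteine, had 19.8, 14.3 and 23.5 FPKM. Its ratio of replicate 3 to replicate 2 was under 2-fold, at 1.64 (0.971 to 2.86). SelR, at 10.9, 10.6 and 13.6 FPKM, was also under 2-fold. Sam-S, which makes S-adenosylmethionine, had 11.8, 7.34 and 22.0 FPKM, and Gnmt, which uses it, had 4.04, 9.72 and 31.0 FPKM. Gclm, a subunit of the enzyme of glutathione synthesis, had 9.30, 5.48 and 16.9 FPKM, whereas its partner Gclc had 9.09, 19.0 and 10.8 FPKM.

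The juvenile hormone receptor genes Met and gce had 7.86, 5.94 and 6.86 FPKM and 17.9, 18.5 and 8.56 FPKM beside Kr-h1. The coactivator gene tai had 32.2, 21.5 and 10.1 FPKM, and jhamt and Jhe, of hormone synthesis and breakdown, were listed at 0. For these 3 fragments would have been 5.59 and 2.86 FPKM in replicate 1. The epoxide hydrolase genes Jheh1 and Jheh2 were highest in replicate 3, at 8.08, 3.70 and 13.5 FPKM and at 7.27, 9.99 and 16.5 FPKM, while Jheh3 had 1.27, 7.85 and 7.38 FPKM. Overlaps with other annotated genes, summed over those genes, came to 100% of the exon bases of Jheh1, 91.6% of Jheh2 and 49.5% of Jheh3, and the levels of all 3 are uncertain. Around vri, the clock genes were unequal. Clk, per, tim and Pdp1 had means of 0.148, 0.529, 0.0570 and 0.0840 FPKM from 5 fragments or fewer each, against 44.7 FPKM for vri. cyc, which encodes the partner of Clk, had 22.2, 33.8 and 9.76 FPKM. dbt, a kinase gene annotated as dco, had 16.3, 50.0 and 2.21 FPKM. cry, which encodes the light-sensing cryptochrome, was highest in replicate 3, at 15.8, 13.8 and 36.8 FPKM, with replicate 3 at 2.67 times replicate 2 (95% exact interval 1.58 to 4.72). Among insulin pathway genes set beside ImpL2, Ilp6 was the only insulin-like peptide gene with at least 1 FPKM in every library, at 19.9, 20.5 and 40.8 FPKM. Ilp1, Ilp2, Ilp3, Ilp4, Ilp5 and Ilp8 were listed at 0. In these short genes 3 fragments would have been 6.92 to 12.6 FPKM in replicate 1 and 3.66 to 6.64 FPKM in replicate 3, so low levels are not excluded. Thor, the translation inhibitor gene of the pathway, had 1386, 1526 and 612 FPKM.

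The genes closest in level over the 3 libraries were found by Euclidean distance in log2(FPKM + 1). For Sox14 they were Sply, a sphingosine phosphate lyase gene, at 67.5, 124 and 10.8 FPKM (distance 0.183) and CG10413 at 49.9, 133 and 9.23 FPKM (0.374). E23 was closest to Svil (0.202) and Coop (0.356). Eip63F-1 was closest to a small nucleolar RNA, snoRNA:Psi28S-3342, which rested on 14 fragments (0.134), and to Eip75B (0.377). A distance under 1 was found for 18 genes around Sox14, 23 around Eip63F-1 and 44 around E23. There were 592 around Oatp74D, closest to Arl8 and Cul1, and 294 around vri, closest to scat and, next, to EcR (0.274). Cth was closest to CG17896 and Uch, with 256 genes under 1. Kr-h1 was closest to Cdc45 and CG10283 with 609, ImpE2 to Mgat4a and Fim with 565, and Eip71CD to CG10660 and Cen with 317.

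The 10 genes lie on 3 chromosome arms, with 3 on 2L, 2 on 2R and 5 on 3L. Of the 20 nearest protein-coding genes on either side, 11 had at least 20 fragments. Replicate 2 over replicate 3 was past 2-fold for 1 of these, Eip63E, 3069 bases from ImpE2, a share near the 13.7% of all genes. Beside Sox14, PPP1R15 had 33.8, 37.9 and 23.8 FPKM at 1545 bases. Both neighbours of E23 were listed at 0. Beside Eip63F-1, mge lies 41 bases away and had 6.72, 7.39 and 10.7 FPKM from only 28 fragments in all. Its highest level was where Eip63F-1 was lowest, but no interval was computed for its ratios.

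Some marker genes of other tissues and some glue genes also differed between the libraries in which Sox14, E23 and Eip63F-1 differed. The new glue genes ng1, ng2 and ng3, which the gland expresses before the hormone pulse, were highest in replicate 3. ng1 had 38.3, 76.2 and 1157 FPKM, ng2 had 253, 244 and 2003, and ng3 had 3159, 1597 and 8685. Of the 10 gland markers, CrebA alone was past 2-fold between replicates 2 and 3, with replicate 3 higher, against 12.1% of all genes. CrebA had 81.4, 91.1 and 209 FPKM, Sgs1 had 6177, 3903 and 7201, and Sgs3 had 245022, 175684 and 177866. The ratio of replicate 2 to replicate 3 was 1.08 for sage and 1.17 for Sgs4. The fat body gene Lsp1alpha had 270, 298 and 979 FPKM and Fbp1, itself known as ecdysone-dependent, had 1037, 1468 and 272 FPKM, whereas Lsp2 had 64.6, 91.6 and 86.2 FPKM. Lsp1gamma had 557, 798 and 1331 FPKM. The median deviation of the 7 fat body genes from their own means was -0.50, 0.015 and 0.48 on the log2 scale in replicates 1, 2 and 3. Hemocyte markers, of which 2 of 6 had at least 1 FPKM in every library, summed to 14.7, 32.5 and 17.6 FPKM, led by crq (mean 16.8 FPKM) and srp (1.77). Muscle markers, 3 of 6, summed to 29.4, 31.2 and 54.2 FPKM, led by TpnC73F (25.7) and Act57B (7.60). Trachea and cuticle markers, 1 of 5, summed to 8.26, 7.67 and 9.48 FPKM, led by pio (6.72) and trh (1.02), with Cpr65Av at 0. The part of these in the differences of Sox14, E23 and Eip63F-1 was not tested.

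**Figure D4:**
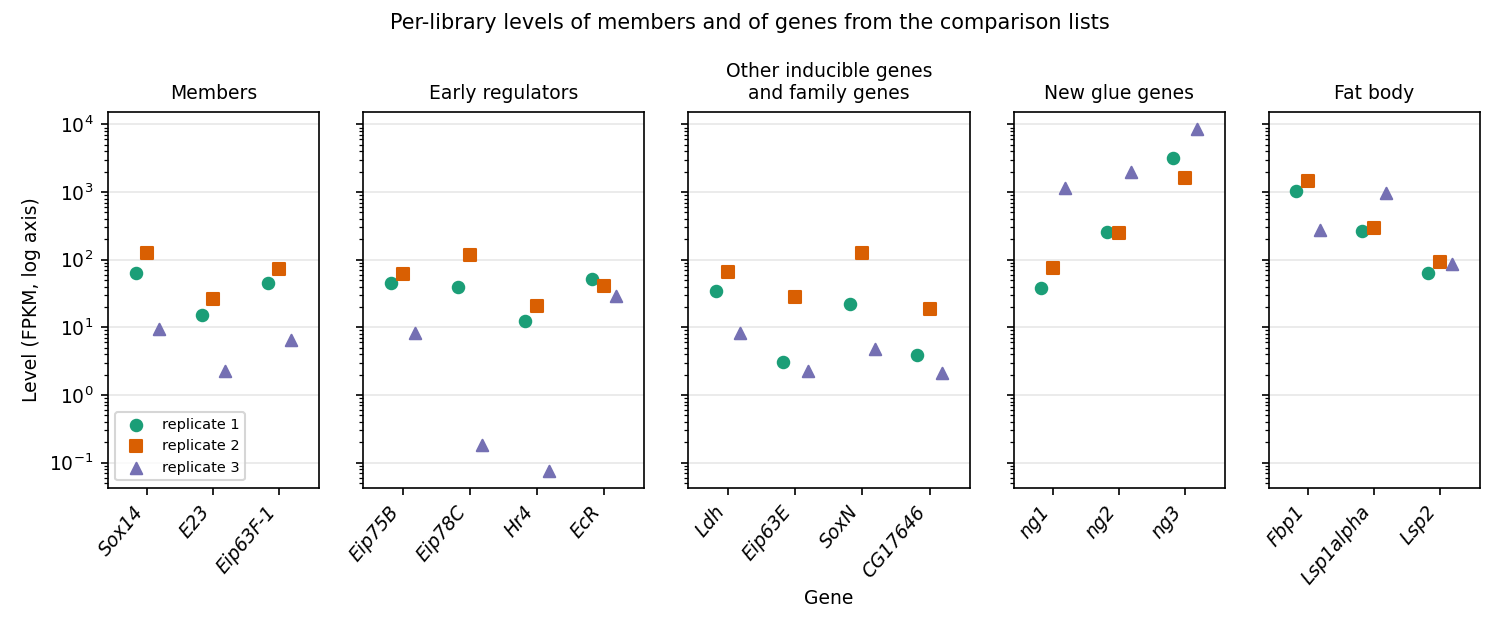
Levels in FPKM (log axis) in replicates 1, 2 and 3 (symbols) of Sox14, E23 and Eip63F-1 and of selected genes of the early regulators, other inducible and family genes, new glue genes and fat body. Replicate 3 is lowest for the genes drawn in the first 3 panels and highest for ng1, ng2 and ng3. Fbp1 stands at 272 FPKM and Lsp1alpha stands at 979 FPKM in that library. Some genes of the same lists that are not drawn differ. Sox21b had 8.68, 5.11 and 8.52 FPKM and ftz-f1 had 1.17, 0.801 and 1.36 FPKM, and ng4 rested on 1 fragment.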

How the data were processed

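The deposited values are FPKM, 1 per gene and library, made by the authors. The submitters' processing notes list HISAT2 and DESeq, with no version. Which build, annotation and counting program served is not given in the sources used. The file name marks the counting as unstranded, although the kit keeps strand. Of 17278 gene identifiers, 17142 were found in Ensembl release 115 for BDGP6.54. FPKM times exon length gave whole multiples of 1 step, within 0.01, for 98.7% to 98.8% of values above 0. The fragments so recovered served for depth and intervals, and no count model was fitted. A single fragment in 2000 bases equals 1.00, 0.687 and 0.529 FPKM in replicates 1, 2 and 3. Levels were compared on the log2 scale of FPKM plus a pseudocount of 1, which understates differences of low genes. Ratio intervals are exact conditional binomial intervals of 95%, and shares have Wilson intervals. A gene at 0 in the lower library counted as past any fold. Recovery and 2-fold calls were run on simulated data with counting error only, built from the same step and exon lengths. Recovery there follows from how the data were built, so it checks the code and not the deposited values.

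Members and lists were chosen with earlier results of these data known. Genes named are the 10 members, the 2 highest and 2 most variable genes of each of 16 lists, and the 2 closest genes of each member with a mean of at least 5 FPKM; others were chosen after their values were seen. Because 1 group of 3 libraries has no contrast, p-values come only from within-library differences and measure the spread between libraries, which may be technical. Alternatives were other detection limits, pseudocounts, scalings, fold thresholds and each library left out. Computation used scipy 1.17.1, pandas 2.3.3, numpy 2.4.6 and matplotlib 3.10.9 under Python 3.11.15.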

Additional observations from a re-analysis of the deposited data

How the results depend on the processing

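All 10 genes kept at least 1 FPKM in every library with TPM and with TPM without rRNA-named genes. So they did with each library left out (10 to 10), but this was fixed in advance because all 10 passed in every library. In every library 9 reached 2 FPKM and 6 reached 5 FPKM. The number of neighbours in the order of levels with the same sign in every library was 2, and 3 to 5 with a library left out. Leaving out a library could only keep or raise this number, so the rise carries no information. Leaving out a library turned the sign of 6 of the 9 mean differences of log2(FPKM + 1). Cth minus Sox14 ran from -0.64 without replicate 3 to 1.71 without replicate 2, Sox14 minus vri from -0.82 (without 2) to 0.85 (without 3), and vri minus Eip63F-1 from -0.22 (without 3) to 1.31 (without 2). Eip63F-1 minus Oatp74D ran from -0.031 (without 2) to 1.30 (without 3), E23 minus Eip71CD from -0.21 (without 1) to 0.75 (without 3), with -0.022 without replicate 2, and ImpE2 minus Kr-h1 from -0.16 (without 1) to 0.17 (without 2). The genes past 2-fold between replicates 2 and 1 numbered 1 (13.9% of all genes). They numbered 5 with TPM (23.3%), 3 with TPM without rRNA-named genes (16.4%) and 2 with median ratios (13.4%). With no fragment minimum 2 passed (22.8%). Past 1.5-fold there were 6 (34.8%), past 4-fold 0 (2.39%) and past 10-fold 0 (0.74%). As TPM the median log2 ratio was 0.51 for replicate 2 over replicate 1, against -0.027 as deposited. For replicate 1 over replicate 3 it was -0.70, against -0.013 as deposited. Between replicates 2 and 3, 6 passed 2-fold (25.8%), 3 passed 4-fold (7.25%) and 3 passed 10-fold (2.75%). Between replicates 1 and 3, 0 passed 10-fold (1.44%). The 10-fold threshold was chosen after seeing the data. No paired analysis was possible because the study has 1 group. Depth limits ImpL2, ImpE2 and Eip71CD, with 13, 18 and 29 fragments in all.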
